A study of Homo sapiens with 2 samples.

Results

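The 36 genes described here encode aminoacyl-tRNA synthetases, the enzymes that join each amino acid to its transfer RNA, out of 10987 genes with a value in the table. They were chosen by name and not by a rule on their values, though with earlier results of these data known. Of them, 17 encode cytosolic enzymes, 16 encode mitochondrial enzymes, whose names end in 2, and GARS, KARS and QARS were kept apart. Their transcripts were measured by RNA sequencing in 2 libraries of THP1, a leukaemia line of human monocytic origin that carries the MLL-AF9 fusion gene. The cells of 1 library had received bort (bortezomib, an inhibitor of the proteasome) for 24 h, and those of the other were untreated. The dose of bort in the sequenced culture is not named in the sources used here. Each condition has a single library, so no difference could be checked against replicates, no p-value was computed, and each comparison is between these libraries and not between the conditions.

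Levels are given as FPKM (fragments for each kilobase of a transcript, relative to the library's mapped fragments), a unit that accounts for length, so that genes can be compared within a library. Each change is the bort-treated minus the untreated library on the scale of log2(FPKM + 1), called log2 fold change here, and a gene was called higher or lower by 2-fold when this difference reached 1 or -1. The scale understates the change of genes at low levels. The read numbers behind the values are not known, and no counting error is given. All 36 genes were well above 0, the lowest value being 1.73 FPKM for CARS2 in the bort-treated library.

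The libraries are named by their labels, although the markers of cell type went against a monocytic line in both. Of 20 monocytic and myeloid markers 8 were listed, with a summed level of 26.2 FPKM in the untreated and 66.6 FPKM in the bort-treated library, and the other 12, among them CD14 and MPO, were not. Of 20 erythroid markers 18 were listed, with a summed level of 4389 FPKM in the untreated and 4040 FPKM in the bort-treated library. These sums rest on a few abundant genes, and the markers moved between the libraries. The erythroid markers had a median log2 fold change of -0.91, with 12 of 18 lower, 7 of them by 2-fold, and none higher by 2-fold. Over all genes 10.2% were lower and 8.08% higher by 2-fold. The monocytic and myeloid markers had a median of 0.69, with 7 of 8 higher, 2 of the 8 by 2-fold. The part of these shifts in the synthetase values was not tested. In bulk RNA, fewer cells of a type and less RNA per cell cannot be told apart.

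Synthetases supply the ribosome with charged transfer RNA. Human cells hold one set in the cytosol and another, also encoded in the nucleus, that is imported into mitochondria and serves the translation of the few proteins of the mitochondrial genome. GARS (glycine) and KARS (lysine) make both forms from a single gene. QARS (glutamine) has no mitochondrial twin, because glutaminyl-tRNA is made there from glutamyl-tRNA by an amidotransferase. Several of the cytosolic enzymes sit together with the scaffold proteins AIMP1, AIMP2 and EEF1E1 in the multisynthetase complex. Lack of amino acids and other stresses act through phosphorylation of eIF2 and the transcription factor ATF4, whose known targets include genes for several cytosolic synthetases, amino acid transporters and enzymes of amino acid synthesis. ATF4 with a C/EBP partner binds composite C/EBP-ATF elements.

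Promoter windows were read from RefSeq (GRCh38.p14), from 250 bases before to 50 after each gene's start, and were found for 30 of the 36 genes. DARS, LARS, VARS, YARS, AARS2 and VARS2 were not matched. HARS and HARS2, the cytosolic and mitochondrial histidyl-tRNA synthetases, are shown in full, because they are transcribed in opposite directions from starts 85 bases apart and their levels changed places between the libraries. The HARS window lies at chr5:140691321-140691620 on the minus strand and the HARS2 window at chr5:140691205-140691504 on the plus strand, and 184 bases are common to both. Each is printed 5′ to 3′ on its own gene's strand, and capitals mark the core of an ETS factor site (CCGGAAG, or CTTCCGG on the other strand).
HARS: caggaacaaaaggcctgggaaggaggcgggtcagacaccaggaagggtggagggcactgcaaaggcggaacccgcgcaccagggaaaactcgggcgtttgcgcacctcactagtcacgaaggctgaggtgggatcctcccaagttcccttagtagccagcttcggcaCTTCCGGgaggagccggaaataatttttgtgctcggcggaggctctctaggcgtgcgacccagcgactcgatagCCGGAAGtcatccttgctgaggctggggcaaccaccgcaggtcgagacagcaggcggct
HARS2: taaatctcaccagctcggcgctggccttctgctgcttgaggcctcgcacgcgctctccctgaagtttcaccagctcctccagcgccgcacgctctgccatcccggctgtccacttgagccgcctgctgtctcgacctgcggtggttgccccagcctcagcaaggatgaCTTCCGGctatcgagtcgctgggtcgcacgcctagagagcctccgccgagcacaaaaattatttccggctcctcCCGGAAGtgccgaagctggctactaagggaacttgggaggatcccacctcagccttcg

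Each of these windows held the ETS core at 2 positions, and both positions lie in the common stretch. The ETS core stood in the windows of 14 of the 30 genes, 6 of 13 cytosolic, 2 of 3 set apart and 6 of 14 mitochondrial, beside 10.7% of all 27305 windows. The shared sites of HARS and HARS2 are counted in both compartments. All windows, here and below, include those of genes not listed in these data.

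The core of the C/EBP-ATF element (TGATGNAA, searched on both strands) stood in the windows of 6 of 13 cytosolic genes, none of 3 set apart and 1 of 14 mitochondrial genes, beside 3.67% of all windows. No match shared a base with the other motifs searched. The 7 matches are shown with 25 bases on either side, 5′ to 3′ on the gene's strand, with the match in capitals. They lie in GRCh38.p14 at chr16:70289661-70289718 (minus strand) for AARS, chr11:3057393-3057450 (minus strand) for CARS, chr9:92293678-92293735 (minus strand) for IARS, chr12:57488039-57488096 (plus strand) for MARS, chr18:57621790-57621847 (minus strand) for NARS, chr5:33440942-33440999 (plus strand) for TARS and chr12:32756062-32756119 (minus strand) for YARS2.
AARS: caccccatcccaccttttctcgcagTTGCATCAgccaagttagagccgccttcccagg
CARS: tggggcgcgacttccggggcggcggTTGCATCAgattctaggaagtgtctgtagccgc
IARS: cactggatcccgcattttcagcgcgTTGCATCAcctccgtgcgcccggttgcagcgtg
MARS: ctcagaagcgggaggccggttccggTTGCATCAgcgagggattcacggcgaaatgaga
NARS: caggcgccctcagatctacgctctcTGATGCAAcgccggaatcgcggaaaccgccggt
TARS: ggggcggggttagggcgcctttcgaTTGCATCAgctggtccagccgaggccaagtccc
YARS2: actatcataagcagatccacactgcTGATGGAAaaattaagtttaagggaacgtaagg

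The cytosolic genes AARS, CARS, IARS, MARS, NARS and TARS all carried the same 8 letters, TGATGCAA, which read TTGCATCA on the gene's strand in 5 of them. YARS2 differed from these in the free position. Counted from the start as base 1, the match began between base -13 and base 15 in 5 cytosolic genes, and at base -187 in AARS. An E-box (CACGTG) stood in 4 of the 30 windows, beside 7.43% of all windows, and a CCAAT box (CCAAT) in 16 of 30, beside 35.7%. These are matches of letters, not measured binding.

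The cytosolic enzymes were the more abundant set. In the untreated library they lay between 10.2 FPKM (CARS, cysteine) and 130.5 FPKM (VARS, valine), with a median of 47.0 FPKM. The mitochondrial enzymes lay between 2.93 FPKM (CARS2, cysteine) and 73.7 FPKM (IARS2, isoleucine), with a median of 12.8 FPKM. In the bort-treated library the medians were 34.4 FPKM for the cytosolic and 7.87 FPKM for the mitochondrial genes. The sum over the 36 genes was 1341 FPKM untreated and 1003 FPKM bort-treated, or 0.638% and 0.453% of all FPKM. The largest falls in FPKM were those of VARS and FARSA, described below, so the sum does not stand for each gene. The shares also depend on the totals, of which the 20 most abundant genes held 10.8% untreated and 21.6% bort-treated.

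**Figure D1:**
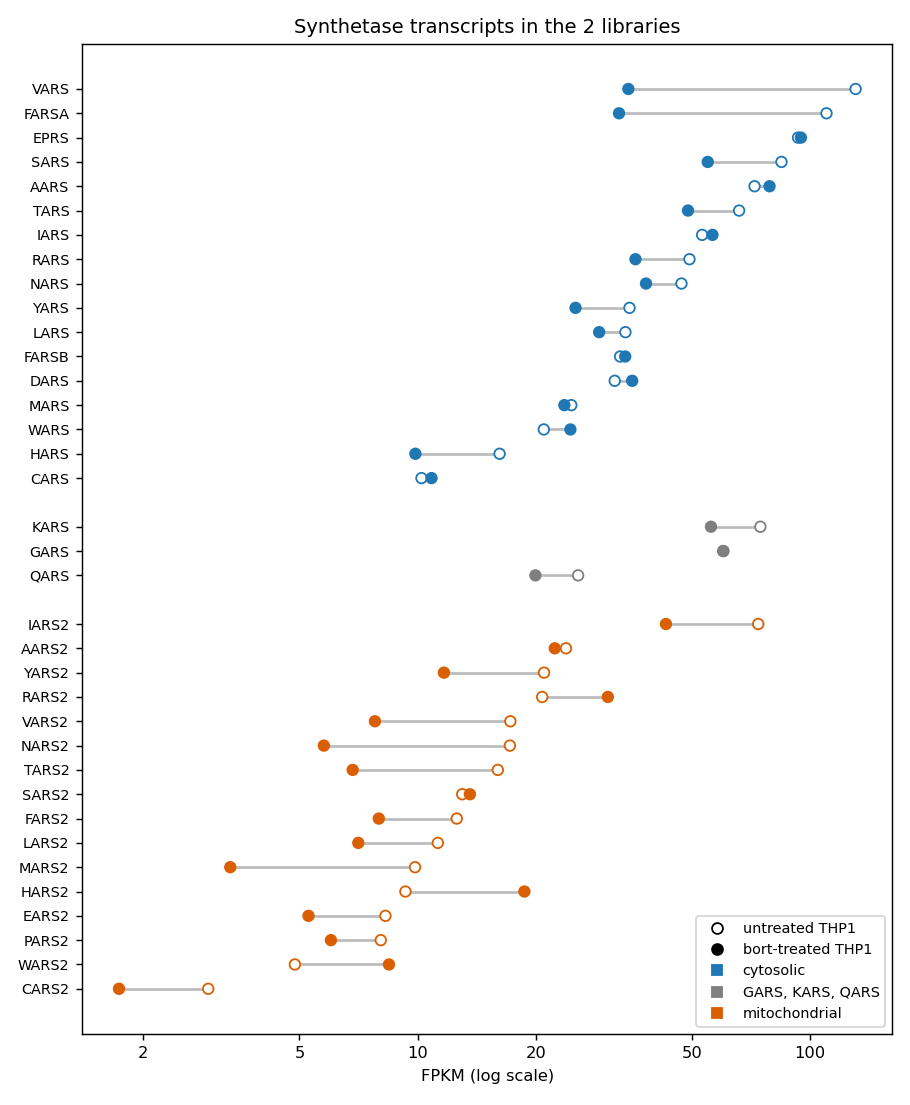
FPKM (log scale) of each synthetase gene in the untreated (open) and the bort-treated (filled) library, with cytosolic genes on top, GARS, KARS and QARS in the middle and mitochondrial genes below. The longest lines that run to the left belong to VARS, FARSA, NARS2 and MARS2, and the longest that runs to the right to HARS2.

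Synthetase transcripts were mostly lower in the bort-treated library. Of the 36 genes 24 were lower and 12 higher by any amount, where 49.7% of all genes were lower and 50.3% higher. Lower by 2-fold were 6 genes, VARS and FARSA among the cytosolic and NARS2, MARS2, TARS2 and VARS2 among the mitochondrial enzymes, where 10.2% of all genes passed that threshold. None of the 36 was higher by 2-fold, where 8.08% of all genes were. The split of all genes past 2-fold, 888 higher and 1125 lower, became 1100 and 931 once the 20 most abundant genes were left out of the scaling, and 1 synthetase gene, HARS2, was then higher by 2-fold. With no pseudocount, 1708 of 10938 genes were lower and 1654 higher by 2-fold, while the same 6 synthetase genes were lower and HARS2 was higher. The shares of all genes past 2-fold thus rest on the pseudocount, and the synthetase count of lower genes did not grow with them. The median log2 fold change was -0.39 over the 36 genes and 0.0049 over all genes. None of these shares was tested, since genes of 2 libraries are not replicates.

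Among the cytosolic enzymes, 2 genes stood apart from the other 15. VARS, the valyl-tRNA synthetase and the most abundant synthetase of the untreated library, was at 130.5 FPKM there and at 34.4 FPKM in the bort-treated library, a log2 fold change of -1.89. FARSA, the catalytic alpha subunit of phenylalanyl-tRNA synthetase, was at 110.0 FPKM and 32.6 FPKM, a log2 fold change of -1.73. By level, VARS went from place 228 to place 984 among all genes, and FARSA from place 293 to place 1046. The next lowest were HARS (histidine), at 16.2 FPKM untreated and 9.87 FPKM bort-treated with a log2 fold change of -0.66, and SARS (serine), at 84.5 FPKM and 54.8 FPKM with -0.62.

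The subunits of phenylalanyl-tRNA synthetase parted. The cytosolic enzyme is a tetramer of paired alpha and beta subunits. FARSB, the beta subunit, was at 32.8 FPKM untreated and 33.8 FPKM bort-treated, a log2 fold change of 0.042. In the untreated library FARSA was by far the higher of the subunits, and in the bort-treated library it stood just below FARSB.

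The remaining cytosolic genes changed less on this scale. RARS (arginine), YARS (tyrosine), TARS (threonine), NARS (asparagine), LARS (leucine) and MARS (methionine) had log2 fold changes between -0.45 and -0.056. EPRS (glutamate and proline), FARSB, CARS (cysteine), IARS (isoleucine), AARS (alanine), DARS (aspartate) and WARS (tryptophan) were higher, between 0.024 and 0.22. The highest of these were WARS, at 21.0 FPKM untreated and 24.5 FPKM bort-treated, a log2 fold change of 0.22, DARS, at 31.8 FPKM and 35.2 FPKM with 0.14, and AARS, at 72.1 FPKM and 78.8 FPKM with 0.13. With VARS and FARSA lower, EPRS was the most abundant synthetase transcript of the bort-treated library, at 94.7 FPKM against 93.1 FPKM untreated. The median over the 17 cytosolic genes was -0.22.

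The 3 genes set apart were not past 2-fold in either direction. KARS was at 74.7 FPKM untreated and 55.9 FPKM bort-treated, a log2 fold change of -0.41, and QARS at 25.6 FPKM and 19.96 FPKM, a log2 fold change of -0.35. GARS was at 60.0 FPKM and 60.1 FPKM, a log2 fold change of 0.0021.

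Mitochondrial enzymes changed in both directions, as the cytosolic ones did. The 16 genes ran from -1.43 to 0.93, with 12 lower, 4 higher and a median log2 fold change of -0.58. NARS2 (asparagine) had the lowest, at 17.2 FPKM untreated and 5.77 FPKM bort-treated, a log2 fold change of -1.43. MARS2 (methionine) was at 9.85 FPKM and 3.33 FPKM, a log2 fold change of -1.32. TARS2 (threonine) followed at 16.0 FPKM and 6.83 FPKM, with -1.12. VARS2 (valine) was at 17.2 FPKM and 7.79 FPKM, with -1.05, just past the 2-fold threshold.

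The next lowest, YARS2 (tyrosine), was short of 2-fold at 21.0 FPKM and 11.7 FPKM, with a log2 fold change of -0.80. It was followed by IARS2, at 73.7 FPKM and 42.9 FPKM with -0.77. IARS2 was the most abundant mitochondrial synthetase in both libraries. LARS2, FARS2, EARS2, CARS2, PARS2 and AARS2 lay between -0.61 and -0.091. EARS2 (glutamate) and PARS2 (proline) split between them the work that EPRS does in the cytosol, and they were at 8.28 FPKM and 8.06 FPKM untreated and at 5.27 FPKM and 6.01 FPKM bort-treated.

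Of the 4 mitochondrial genes that were higher, 3 lay above every cytosolic one. HARS2 was at 9.31 FPKM untreated and 18.7 FPKM bort-treated, a ratio of 2.01 and a log2 fold change of 0.93, since the pseudocount of 1 FPKM keeps it below the threshold. It lay above 90.5% of all genes. WARS2 (tryptophan) was at 4.87 FPKM and 8.45 FPKM, a log2 fold change of 0.69. RARS2 (arginine) was at 20.8 FPKM and 30.5 FPKM, with 0.53, and SARS2 (serine) at 13.0 FPKM and 13.6 FPKM, with 0.061.

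**Figure D2:**
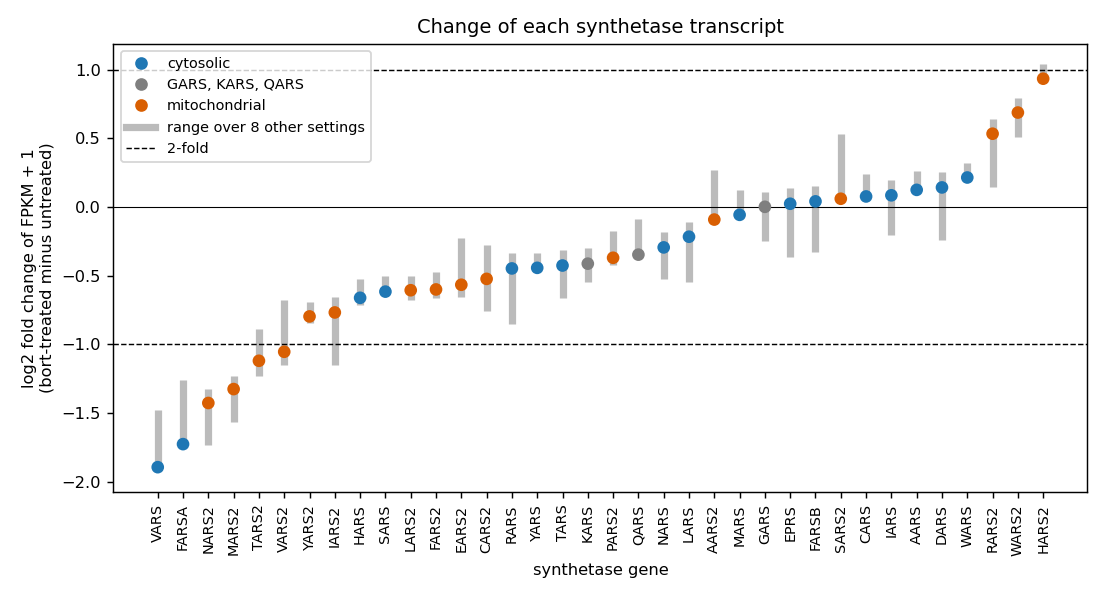
Log2 fold change of each synthetase gene (points, coloured by compartment) in rising order, with the range of the same value under 8 other pseudocounts, scalings, filters or a removed GC trend (grey bars) and the 2-fold threshold (dashed lines). The 6 lowest genes, VARS to VARS2, lie below the lower dashed line, and HARS2 lies just under the upper one.

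Cytosolic and mitochondrial enzymes for one amino acid could be set side by side in 15 pairs, with FARS2 set against both FARSA and FARSB. In 7 pairs both genes were lower and in 1, WARS and WARS2, both were higher. The cytosolic gene was lower and the mitochondrial gene higher for histidine, arginine and serine (3 pairs), and the reverse held in 4 pairs. The valine enzymes VARS and VARS2 were the only pair in which both were lower by 2-fold. For methionine, asparagine and threonine the mitochondrial gene was lower by 2-fold and the cytosolic gene was not, MARS being at 24.6 FPKM and 23.6 FPKM, NARS at 47.0 FPKM and 38.2 FPKM and TARS at 65.9 FPKM and 48.8 FPKM. For phenylalanine the reverse held with FARSA.

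The cytosolic gene had the higher level in 14 of 15 pairs in each library, but the exception differed. In the untreated library it was isoleucine, with IARS at 0.720 times the level of IARS2, and in the bort-treated library IARS was 1.31 times as high. In the bort-treated library it was histidine, with HARS at 0.528 times the level of HARS2, where untreated HARS had been 1.74 times as high. For methionine the ratio of MARS to MARS2 was 2.50 untreated and 7.10 bort-treated, and for threonine that of TARS to TARS2 was 4.12 and 7.15, the largest of the 15 in the bort-treated library. For phenylalanine the ratio of FARSA to FARS2 was 8.75 and 4.09, and the first of these was the largest of the untreated library.

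The multisynthetase complex was described apart from the other enzymes. Its 8 genes (DARS, EPRS, IARS, KARS, LARS, MARS, QARS and RARS) had log2 fold changes between -0.45 and 0.14, 3 higher and 5 lower, with a median of -0.14. None was past 2-fold, beside 8.08% of all genes higher and 10.2% lower by that amount, which for 8 genes is too few to set the complex apart. The other 12 genes with no 2 at the end had a median of -0.36, from -1.89 to 0.22, and included VARS and FARSA. Its scaffolds did not move together. AIMP2 was at 32.9 FPKM untreated and 13.9 FPKM bort-treated, a log2 fold change of -1.19. AIMP1 was at 22.1 FPKM and 19.0 FPKM with -0.21, and EEF1E1 at 19.9 FPKM and 35.8 FPKM with 0.81.

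By the fold of the catalytic domain, class I and class II enzymes were alike in their summaries. The 18 class I genes had a median log2 fold change of -0.44 with 3 lower by 2-fold (VARS, MARS2 and VARS2). The 17 class II genes had a median of -0.37 with 3 lower by 2-fold (FARSA, NARS2 and TARS2), where 10.2% of all genes were. EPRS holds a domain of either class and was left out of both.

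Other genes of charging and translation showed no common direction. The counts past 2-fold in these and the following lists stand beside 8.08% of all genes higher and 10.2% lower. Of 7 cytosolic elongation factors, EIF5A was at 195.3 FPKM untreated and 91.6 FPKM bort-treated, a log2 fold change of -1.08, while EEF1G, a subunit of the exchange factor for the elongation factor that delivers charged transfer RNA, was at 0.81. The other subunits listed of this factor were at 0.71 (EEF1B2) and -0.93 (EEF1D). Of 13 listed mitochondrial charging and translation factors none was past 2-fold. TUFM, the mitochondrial elongation factor Tu, was at 267 FPKM and 146 FPKM with -0.87, and its exchange factor TSFM at -0.77. QRSL1, a subunit of the amidotransferase that makes mitochondrial glutaminyl-tRNA, was at 5.15 FPKM and 10.6 FPKM with 0.92, and the release factor MTRF1L at 0.63.

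Among 25 genes of tRNA maturation and export, 2 were higher and 1 lower by 2-fold, with a median of -0.095. XPOT, the exportin that carries mature transfer RNA out of the nucleus, was at 18.6 FPKM and 38.7 FPKM with a log2 fold change of 1.02, and FAM98B, a part of the tRNA ligase complex, was at 1.13. POP7, a subunit of RNase P, which trims the leading end of the precursor, was at -1.26, and ELAC2, which trims the other end, at -0.96. Of 8 synthetase-like and editing genes 1 was past 2-fold, DTD1, a deacylase that removes D-amino acids from transfer RNA, at -1.32. The highest of that list were PSTK, a kinase on the way to selenocysteinyl-tRNA, at 0.35 and DTD2 at 0.26.

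Genes of the integrated stress response were mostly higher. Of 14 listed genes, 6 were higher and none lower by 2-fold, with a median log2 fold change of 0.91. DDIT3, which encodes the transcription factor CHOP, was at 13.4 FPKM untreated and 153.8 FPKM bort-treated with 3.43, and DDIT4 was at 2.72. The lowest of the list were STC2 at -0.53 and EIF4EBP1, an inhibitor of translation initiation, at -0.30. ATF4 itself was at 153.8 FPKM and 192.0 FPKM, with 0.32. The 6 cytosolic synthetase genes with the C/EBP-ATF core printed above lay between -0.43 (TARS) and 0.13 (AARS), with a median of 0.011. The 7 cytosolic genes with no such core in their window had a median of -0.45, between -1.73 and 0.22. The median over all genes was 0.0049. YARS2, the mitochondrial gene with a match, was at -0.80. GARS, KARS and QARS, with windows and no match, lay between -0.41 and 0.0021. Whether the core has a part in these values was not tested. Each window covers only the bases around a single annotated start, so an element elsewhere would be missed. MARS, which has the core, shares exonic bases with DDIT3 on the opposite strand, so its value is uncertain. Promoter windows of VARS, YARS, DARS and LARS were not analysed here.

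Transporters and enzymes of synthesis were also set beside the synthetases. Of 12 listed transporters 2 were higher by 2-fold, SLC7A11, the cystine carrier, at 2.32 and SLC38A2, a carrier of small neutral amino acids, at 2.07, and none was lower by 2-fold. SLC7A5, the large neutral amino acid carrier, was at -0.63, and SLC1A5, a glutamine carrier, at -0.49. Of 20 enzymes of amino acid synthesis and one-carbon metabolism 1 was higher and 3 were lower by 2-fold, with a median of -0.55. CTH, which makes cysteine from cystathionine, was at 1.66 FPKM and 9.33 FPKM with 1.96, and MTHFD2, a mitochondrial folate enzyme, just missed the threshold at 0.999. CBS, the step before CTH, was at 22.6 FPKM and 5.38 FPKM with -1.89. The other 2 lower by 2-fold were PYCR1, the last step to proline, at -1.27, and GPT2, the mitochondrial alanine aminotransferase, at -1.18.

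Of 12 eIF2 kinases and regulators, EIF2AK3, which encodes the kinase PERK, was higher by 2-fold at 1.13, and EIF2AK2, which encodes the kinase PKR, was at 0.44. Lower by 2-fold were EIF2B1 and EIF2B3, subunits of the exchange factor of eIF2, at -1.11 and -1.08, and GCN1, which helps uncharged transfer RNA to activate the kinase GCN2, at -1.07. Of 12 listed interferon-induced genes, a set to which WARS belongs in many cells, 2 were higher and 2 lower by 2-fold, with a median of 0.17. IFI6 was at 1.41 and STAT2 at 1.10, and IFI30 at -2.04 and ISG15 at -1.50.

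Across all genes the log2 fold change fell with the GC content of the transcripts. The GC content of a gene is the median over its annotated transcripts, short ones included, and may differ from that of the transcript expressed. The Spearman correlation over 10907 genes of these 2 libraries was -0.47, and the median ran from 0.51 in the lowest of 10 bins of GC content with equal numbers of genes to -0.61 in the highest. The part of this trend in the synthetase values was not tested beyond its removal. VARS (60.5% GC) and FARSA (61.8% GC) lay near the upper end and below the trend, and with the trend removed they were at -1.48 and -1.26. NARS2 (42.9% GC) and MARS2 (48.4% GC) were at -1.73 and -1.38. IARS2 (41.2% GC) came past the threshold, at -1.15, and TARS2 and VARS2 fell short of it, at -0.89 and -0.68. Of the 17 cytosolic genes 13 were then lower and 4 higher, with RARS, TARS, LARS and NARS at -0.85, -0.66, -0.54 and -0.52. The order of the sets turned with the trend removed, to medians of -0.48 for the cytosolic and -0.37 for the mitochondrial genes, so the lower median of the mitochondrial set did not hold. The Spearman correlation with GC content was -0.31 over the 36 genes, -0.32 over the 17 cytosolic genes (Pearson -0.67, with VARS and FARSA at the high end) and 0.053 over the 16 mitochondrial genes, all across genes of these 2 libraries.

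Several of these genes share exons with a neighbour, and the labels and the methods name different library kits, so it is not settled that the counting told strands apart. On the same strand HARS2 shares exonic bases with ZMAT2, SARS2 with AC011455.2 and VARS2 with GTF2H4. On the opposite strand MARS overlaps DDIT3, the gene at 3.43 above, and HARS overlaps HARS2. WARS, YARS, KARS, AARS2, CARS2, EARS2 and SARS2 also share exonic bases with a protein-coding gene on the opposite strand. How far reads of one gene were counted for the other cannot be told from FPKM, so the values of these genes are uncertain.

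A total of 9 pairs join a synthetase gene and a protein-coding gene that starts within 1000 bases of it on the opposite strand and is listed, HARS and HARS2 being 1 of them. In 7 of these 9 pairs the partners had opposite signs, beside 364 of 914 such pairs (39.8%) over all listed genes. RARS2 at 0.53 and ORC3, an origin recognition subunit, at 1.69 were both higher. SARS2 at 0.061 stood beside MRPS12, a protein of the mitochondrial ribosome, at -1.71. EARS2, FARS2 and CARS2, at -0.57, -0.60 and -0.52, stood beside UBFD1, LYRM4 and ING1 at 0.65, 0.64 and 0.70. These pairs were counted after the values had been seen, and some of their exons overlap.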

How the data were processed

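RNA was sequenced from 1 bort-treated and 1 untreated THP1 culture. Reads were trimmed and aligned by the authors (HISAT2 2.0.4), who deposited the StringTie 1.2.3 abundances as gene FPKM. The processing notes name GRCh37. The annotation is not given in the sources used here. Every gene reached at least 0.501 FPKM in a library. FPKM sums were 221529 bort-treated and 210026 untreated, and depth is unknown. The 20 most abundant genes held 21.6% of the bort-treated and 10.8% of the untreated sum.

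Fold changes were differences of log2(FPKM + 1). No test was run. GC content (10907 genes, 99.3%, median over a gene's annotated transcripts), overlaps and neighbours came from GENCODE 29 (GRCh38), and promoters from RefSeq, matched by symbol. The GC trend was removed by lowess (span 0.3). Calculations were run on simulated data with planted changes larger than 2-fold, which checks the code and not the calls in these data. Each synthetase could be named, and from each other list the 2 largest rises and falls or the genes behind a small count. ATF4 and the neighbours were named after their values were seen. Members, lists and motifs were chosen with earlier results of these data known. Values of some listed genes are not reported here. Alternatives were other pseudocounts, scalings, thresholds, a filter and the GC trend removed. Software was Python 3.11.15 with statsmodels 0.14.6, scipy 1.17.1, pandas 2.3.3, numpy 2.4.6 and matplotlib 3.10.9.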

Additional observations from a re-analysis of the deposited data

How the results depend on the processing

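No paired analysis was possible because neither condition was sequenced more than once, and for that reason no library could be left out. Of the 36 genes 29 kept their direction under all of 8 other pseudocounts, scalings, filters and the removed GC trend. DARS, EPRS, FARSB, GARS, IARS, MARS and AARS2 changed sign in some. The other pseudocounts and the filter could not change a sign, so this count rests on the scalings and the removed GC trend. The filter changed no value of the 36 genes and could only repeat the main result, also in the counts that follow. VARS, FARSA, NARS2 and MARS2 were lower by 2-fold in all 8, TARS2 in 7 and VARS2 in 5, and HARS2 was higher by 2-fold in 3. The medians of the cytosolic and mitochondrial genes and their difference were -0.22, -0.58 and 0.37. The mitochondrial median was -0.67, -0.66 and -0.62 with no pseudocount, 0.1 and 0.5 FPKM, and the difference 0.44, 0.44 and 0.40. It was -0.59 with scaling by the median of ratios. Scaling by the upper quartile gave -0.11, -0.49 and 0.38, and by the total without the 20 most abundant genes -0.11, -0.48 and 0.38. With either of these, or no pseudocount, 1 mitochondrial gene was higher by 2-fold. With the GC trend removed the values were -0.48, -0.37 and -0.10, a turned order. Means were -0.36, -0.44 and 0.082. With GARS, KARS and QARS counted as cytosolic that median was -0.25 and the difference 0.33. Past 1.5-fold, 0 of 17 cytosolic genes were higher and 4 lower, and 2 of 16 mitochondrial genes were higher and 8 lower. Of all 10987 genes, 2282 were higher and 2378 lower past 1.5-fold. Past 4-fold, 0 cytosolic and 0 mitochondrial genes were lower, and the share of all genes past 4-fold was not counted. Chosen after seeing the data, genes sharing no exon with another coding gene (13 cytosolic and 10 mitochondrial) gave a mitochondrial median of -0.69 and a difference of 0.47. Over all genes, 888 higher and 1125 lower by 2-fold became 1086 and 939 with the upper quartile, 1100 and 931 without the 20 most abundant genes, and 787 and 690 with the GC trend removed. With no pseudocount they were 1654 and 1708. Depth being unknown, counting error could not be separated from any difference.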
